A study of Mus musculus with 161 samples.

Results

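The 39 genes described here code for the chaperones that fold proteins in the cytosol and in mitochondria and for the channels that carry proteins into mitochondria. They were taken by name, as 39 of the 43280 gene rows of a table in TPM, a measure of transcript abundance that corrects for gene length and sums to a fixed total in each cell, and all 39 were found. Of these, 21 act at or in mitochondria and 18 in the cytosol. The measurements are single-cell mRNA profiles of the mouse monocyte lineage, from untreated primary cells of strain C57BL/6 captured and amplified on C1 microfluidic chips. There were 66 common monocyte progenitors (cMoP) from bone marrow, sorted as Lin−CD117+CD115+CD135−Ly6C+. The 57 bone marrow (BM) monocytes were sorted with the same antibodies but as CD117-, and the 38 blood monocytes as CD115+CD11b+Ly6Chi. No animal, age or sex was given, so each cell type counts as 1 sample of cells. No test between cell types was possible, and every SD or interval covers cells only.

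New polypeptides leaving the ribosome are received by the HSP70 protein Hspa8 and its DnaJ partners. Some clients, such as actin and tubulin, pass to the barrel-shaped TRiC/CCT complex, and others, such as kinases and hormone receptors, to HSP90. Most mitochondrial proteins are made in the cytosol and held unfolded by the same chaperones. They enter through the TOM pore of the outer membrane and the TIM23 channel of the inner membrane, while small TIM proteins escort hydrophobic cargo between the membranes. In the matrix the HSP70 protein Hspa9 pulls them in and the Hspd1-Hspe1 chamber (HSP60 and HSP10) folds them. Precursors that divide and synthesise much protein place a large load on this machinery, and mature monocytes divide little.

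Because several of these genes share upstream sequence features, the letters that carry them are shown before the values. RefSeq promoter windows (GRCm38.p6, from 250 bases before to 50 bases after an annotated start) were held for 34 of the 39 genes; Hspa9, Cct4, Hspa8, Hsp90aa1 and Hsp90ab1 had no entry. A heat shock element is a run of alternating GAA and TTC units 2 bases apart. The 3-unit forms GAANNTTCNNGAA and TTCNNGAANNTTC, which are each other's reverse complement, occurred in 0.603% of all 32851 windows and in windows of Hspd1, Hspe1, Timm9 and Hsph1. Hspd1 and Hspe1 are divergent neighbours on chromosome 1, and their windows hold the same genomic site. The sites below are 30 bases long, 5′ to 3′ on the strand of the gene, with the units and the bases between them in capitals.
Hspe1, chr1:55088053-55088082, + strand: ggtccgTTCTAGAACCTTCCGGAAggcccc
Timm9, chr12:71136857-71136886, - strand: tattaggctTTCTAGAAATTTCgacagatt
Hsph1, chr5:149636287-149636316, - strand: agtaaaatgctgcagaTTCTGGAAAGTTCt
The site shared by Hspe1 and Hspd1 spans 18 bases (chr1:55088059-55088076), in which both 3-unit forms overlap, and starts 89 bases before the Hspe1 start. The Timm9 match starts 202 bases before the start of that gene, and the Hsph1 match begins 36 bases after 1 of its 2 annotated starts. The shorter form GAANNTTC, contained in every 3-unit match, occurred in 7.86% of all windows and in those of Cct2 and Dnaja1 besides these 4 genes. No CCT gene other than Cct2 among the 7 with a window held either form.

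The palindrome CACGTG, the E-box letters bound by Myc and its relatives, was held by 7.15% of all windows. It lay in windows of 6 of the 20 mitochondrial genes with an entry (Hspd1, Phb, Timm10, Timm8a1, Timm9 and Tomm20) and of 1 of the 14 cytosolic genes (Hsph1). CACGTG is its own reverse complement, so both strands are searched at once, and no match overlapped a heat shock element. It is shown for the 6 mitochondrial genes, again in 30 bases on the strand of the gene, with CACGTG in capitals.
Hspd1, chr1:55088306-55088335, - strand: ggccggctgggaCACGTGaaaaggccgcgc
Timm9, chr12:71136716-71136745, - strand: cctacattttccCACGTGgtaacgaatctg
Timm10, chr2:84827037-84827066, + strand: ccggaagtgaccCACGTGcttcttatttcg
Timm8a1, chrX:134541629-134541658, - strand: ccgtcacccagaCACGTGaaggtcggcaag
Tomm20, chr8:126946030-126946059, - strand: gcacgccacaaaCACGTGctgcccctgacc
Phb, chr11:95666713-95666742, + strand: ttgaggaataggCACGTGcatatattacca
Small TIM genes held 3 of these 6 matches; Timm9 and Timm8a1 held CACGTG at 2 places each, of which 1 is shown. By GENCODE M21 the sites shown for Timm9, Tomm20 and Phb lie upstream of the annotated gene and those of Hsph1, Timm10 and Timm8a1 inside it. The CACGTG of Hspd1 lies inside the neighbour Hspe1, and the heat shock site of Hspe1 inside Hspd1. The core letters of the NRF1 site (GCATGCGC or, on the other strand, GCGCATGC) occurred in 2.71% of all windows and in those of Grpel1, Timm13 and Cct5. A match describes letters only; binding was not measured.

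Several facts of the whole series bear on these genes. A cMoP had a median of 6662 genes above 1 TPM, against 4719 in BM and 4320 in blood monocytes, and TPM keeps no read depth. Because these files hold no counts, the depth behind a value is unknown, and a gene listed at 0 may have been missed in a cell that contains its mRNA. Of the cMoP libraries, 60 carried 1 flow cell label and 6 carried none, while all monocytes of bone marrow and blood were on another flow cell, in the same lane. Cell type and flow cell therefore cannot be told apart in any comparison with cMoP, but BM and blood monocytes shared both. In 11 cMoP libraries over 15% of TPM came from mitochondrially encoded genes (16.6 to 47.7%); no monocyte library passed that limit. The labels held against the defining genes when these were summed. The summed TPM of 8 progenitor markers had medians of 18933 in cMoP, 8.23 in BM and 7.25 in blood monocytes. That of 8 monocyte markers had medians of 7038, 63195 and 63612, carried in monocytes by Lyz2, with medians of 645, 52936 and 53611. Not all 8 followed that sum. Medians were 5399, 5858 and 2496 TPM for Ly6c2, 45.1, 45.2 and 221 for Csf1r, and 663, 1199 and 224 for F13a1. Those of Ccr2, Fn1, Chil3 and Itgam were higher in both monocyte groups than in cMoP. Of the progenitor markers only Kit was at 0 in every BM monocyte and only Mpo and Elane in every blood monocyte, while Cd34 still passed 1 TPM in 64.9% of BM and 78.9% of blood monocytes, Prtn3 in 28.1% and 7.89%, and Elane in 19.3% of BM monocytes. Medians of the summed TPM of 5 Ly6C-low monocyte markers were 0, 1.86 and 157, with Itgax at 0 in all monocytes. Treml4 passed 1 TPM in 29.8% of BM and 44.7% of blood monocytes, Nr4a1 in 36.8% and 52.6%, and Ace in 7.02% and 23.7%. Cd36 did so in 10.5% of blood monocytes and no BM monocyte. For 7 neutrophil markers the medians were 24.8, 98.2 and 31.8, with Ltf, Camp, Ngp and Retnlg at 0 in all monocytes. Ly6g passed 1 TPM in 90.9, 91.2 and 55.3% of cMoP, BM and blood monocytes. Mmp8 did in 12.1, 63.2 and 47.4%, and Cxcr2 in 72.7, 63.2 and 68.4%. For 4 NK cell markers the medians were 109, 0 and 0, with Ncr1 and Gzma at 0 in all cells. In cMoP Nkg7 passed 1 TPM in 80.3% of cells and Klrb1c in 6.06%. The part of these markers in the results was not tested. The B and T cell genes Cd79a, Pax5, Cd3e, Cd3g and Trac were at 0 in all 161 cells, but Cd79b passed 1 TPM in 65.2, 10.5 and 13.2% of cMoP, BM and blood monocytes, Ms4a1 in 22.7, 28.1 and 36.8%, and Cd3d in 22.7, 22.8 and 26.3%. A gene counted as measured when it passed 1 TPM in 10% or more of the cells of 1 cell type or another, which 14003 genes did, all 39 chaperone and import genes among them. Separate rows for pseudogenes of Hspe1, Hspa9, Tcp1, Cct3 and Dnaja1, between which and the parent genes reads could be split, had means of at most 2.04 TPM in any cell type.

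Both compartments were lower in BM monocytes than in cMoP. A difference here is the later minus the earlier stage, of log2(TPM + 1) averaged over the cells of a group, and a size of at least 1 on this scale is used as a marker of size, not as a test. All 39 genes were below 0, as were 73.5% of all measured genes, and 20 of the 21 mitochondrial and 16 of the 18 cytosolic genes were lower by at least 1, where 30.8% of all measured genes were. None of the 39 was higher by at least 1, against 3.94% of all measured genes. The median difference was -2.80 for the mitochondrial and -2.88 for the cytosolic genes, beside -0.45 for all measured genes. The sides thus differed by far less from each other than the genes within either side, which ranged from -5.71 to -0.71 and from -4.84 to -0.30. Among cells above 1 TPM alone the differences were smaller, with a median of -0.92 for mitochondrial and -1.28 for cytosolic genes. As a log2 ratio of mean TPM, which a few high cells can carry, the medians were -1.32 and -1.01, and 11 of 21 and 9 of 18 genes were lower by at least 1, where 28.2% of all measured genes were. On that scale 36 of the 39 genes were below 0, where 53.1% of all measured genes were. The others were Tomm22 (0.11), Dnaja1 (0.20) and Dnajb1 (1.13), of which Dnajb1 was higher by at least 1, as were 19.8% of all measured genes.

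**Figure D1:**
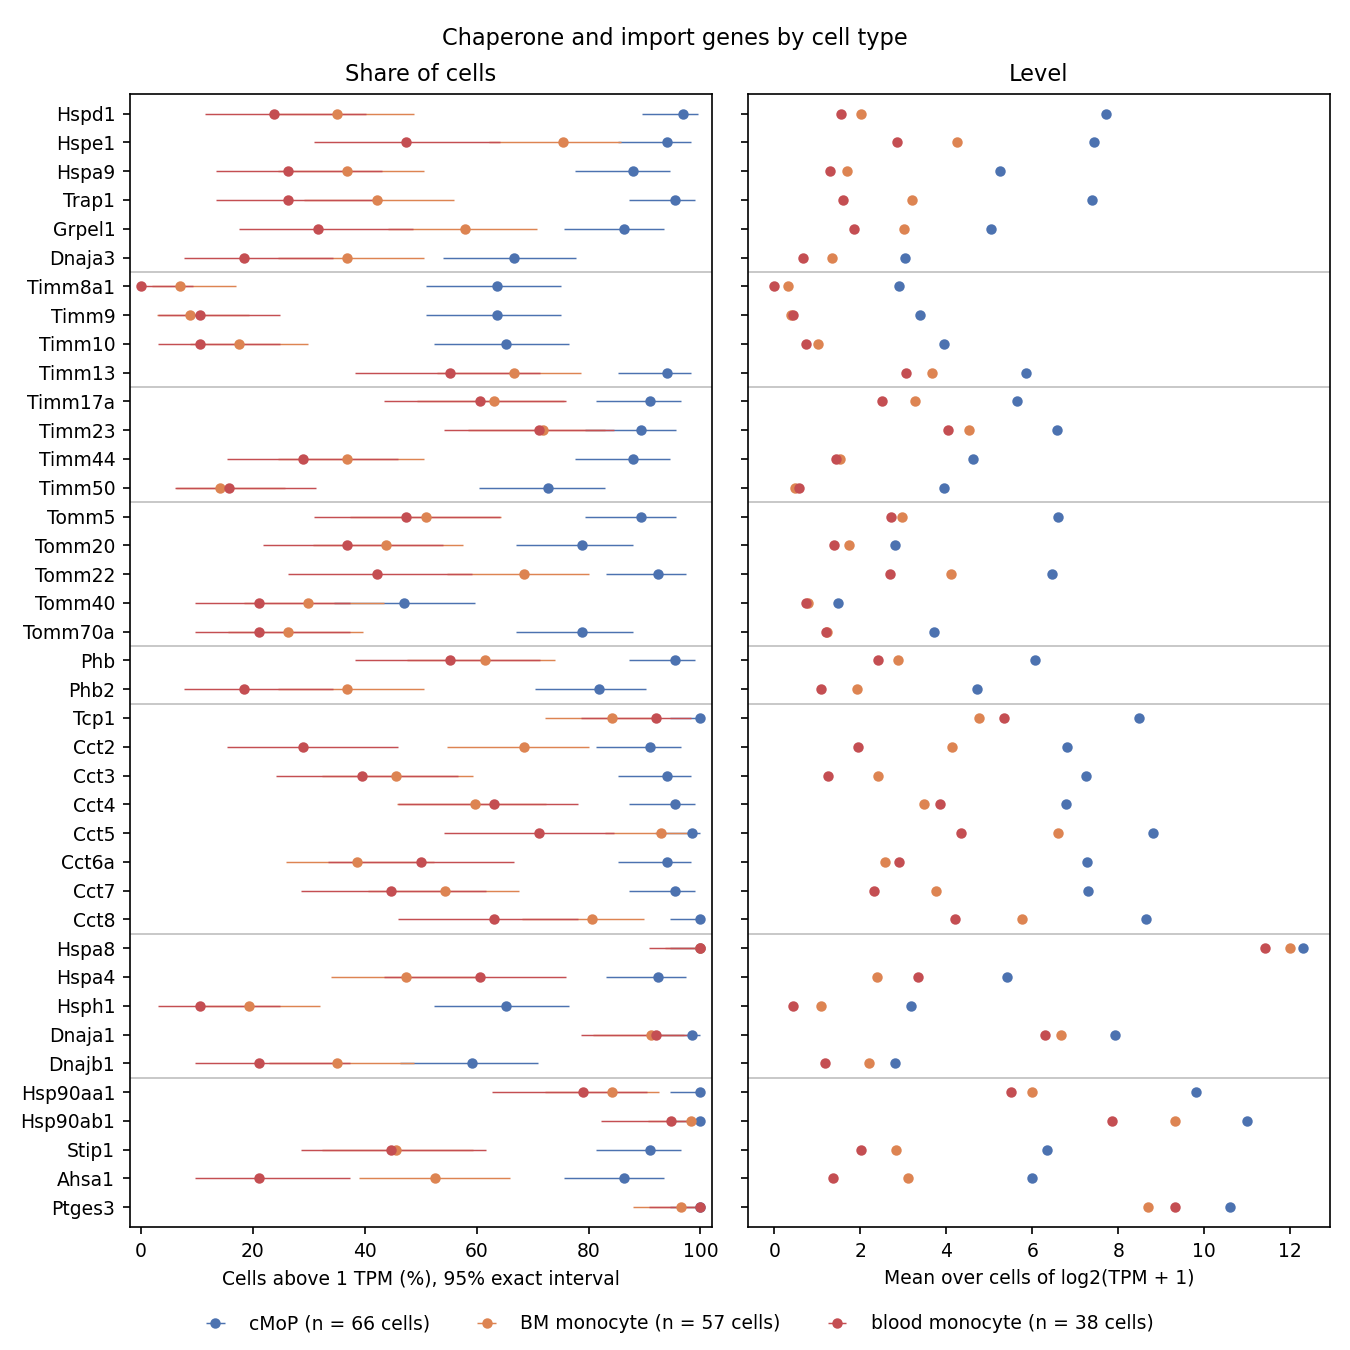
Share of cells above 1 TPM with its 95% exact binomial interval (left, in %) and log2(TPM + 1) averaged over cells (right) for the 39 genes, in 66 cMoP (blue), 57 BM monocytes (orange) and 38 blood monocytes (red). Grey lines separate the role groups, from matrix folding, small TIM, TIM23, TOM and prohibitin genes at the top to TRiC/CCT, HSP70 and HSP90 genes at the bottom. The blue points lie to the right of the others for every gene on the right panel, with those of Tomm40 and Hspa8 the closest together.

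The matrix folding genes held the mitochondrial gene with the largest difference. Values in threes are the lowest, the median and the highest TPM over the cells of a type. Hspd1, the HSP60 subunit, was at 0, 290 and 1122 TPM in cMoP, 0, 0 and 552 in BM monocytes, and 0, 0 and 1047 in those from blood. The upper ends overlapped, but the typical monocyte had none listed: 64 of 66 cMoP passed 1 TPM (97.0%, 95% Clopper-Pearson interval 89.5 to 99.6%), against 20 of 57 BM monocytes (35.1%, 22.9 to 48.9%) and 9 of 38 blood monocytes (23.7%, 11.4 to 40.2%). On the log2 scale its mean was 7.72 ± 2.04 (SD over cells) in cMoP, 2.01 ± 3.09 in BM and 1.55 ± 3.10 in blood monocytes, a difference of -5.71 and then -0.46. Its partner Hspe1, which caps the chamber, was at 0, 245 and 798 TPM in cMoP, 0, 27.8 and 548 in BM monocytes and 0, 0 and 454 in those from blood. Unlike Hspd1, it was kept above 1 TPM by most BM monocytes (75.4%) and by 47.4% of those from blood, with differences of -3.17 and -1.41. Both partners passed 1 TPM together in 61 cMoP, 16 BM monocytes and 5 blood monocytes. Their exons overlap by 112 bases in GENCODE M21 and the libraries do not mark strand, so reads from that stretch cannot be assigned between them.

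Trap1, the mitochondrial HSP90 and the mitochondrial gene with the highest mean over all cells, was at 0, 279 and 1590 TPM in cMoP, 0, 0 and 1378 in BM monocytes and 0, 0 and 1385 in those from blood. The difference lay in how many cells had it: 95.5% of cMoP and 42.1% of BM monocytes passed 1 TPM, yet the cells that passed differed by only -0.15 on the log2 scale, against -4.18 over all cells. Hspa9, the motor of import, passed 1 TPM in 87.9, 36.8 and 26.3% of cMoP, BM and blood monocytes, with a difference of -3.54 from cMoP to BM monocytes. Its nucleotide exchange factor Grpel1 was lower by 2.02 and its DnaJ partner Dnaja3 by 1.69, so all 6 genes of this group were lower by at least 1. In 36 of 66 cMoP all 6 passed 1 TPM in the same cell; this held for 2 of 57 BM monocytes and for no blood monocyte.

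Of the small TIM genes, which code for the carriers of the space between the membranes, all but Timm13 were rarely listed in monocytes. So were Timm50, above 1 TPM in 14.04% of BM monocytes, and Hsph1, in 10.5% of those from blood. Timm8a1 was above 1 TPM in 42 of 66 cMoP (63.6%, interval 50.9 to 75.1%) and 4 of 57 BM monocytes (7.02%, 1.95 to 17%), and was listed at 0 in all 38 blood monocytes, for which the interval reaches 9.25%. Timm9 and Timm10, the partners of the main small TIM hexamer, passed 1 TPM in 63.6% and 65.2% of cMoP, 8.77% and 17.5% of BM monocytes and 10.5% each of those from blood. Their differences from cMoP to BM monocytes were -2.99 and -2.95. Timm13, normally paired with a Timm8 protein, departed from these: its mean TPM was 99.2 in cMoP, 57.4 in BM and 63.3 in blood monocytes, and 66.7% and 55.3% of the monocytes still passed 1 TPM.

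The 4 genes of the TIM23 channel were lower in BM monocytes by a median of 2.74. Timm23, the channel subunit, was the most abundant of them, at 0, 172 and 706 TPM in cMoP, 0, 32.6 and 1363 in BM monocytes and 0, 10.5 and 1209 in those from blood. Its highest monocytes lay above its highest progenitor, and its mean TPM, 199, 153 and 148, differed less than its mean log2 level, which was lower by 2.05 in BM monocytes. Timm50, the receptor that hands precursors to the channel, had the largest difference of the group, -3.47, with 72.7% of cMoP and 14.04% of BM monocytes above 1 TPM. In blood monocytes a single library at 1571 TPM set its mean of 41.8 TPM, and 31 of the 38 cells were at 0. Timm17a and Timm44 were lower by 2.38 and 3.10.

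The outer membrane import genes ranged from -3.62 to -0.71. Tomm5, a small subunit of the pore, was at a mean of 224, 77.5 and 80.9 TPM in cMoP, BM and blood monocytes, with the largest difference of the group, -3.62. Tomm22, the central receptor, was lower by 2.34 on the log2 scale, yet its mean TPM was 176 in cMoP and 190 in BM monocytes. Fewer BM monocytes passed 1 TPM (68.4% against 92.4%), and the highest reached 1267 TPM, above the highest progenitor at 706. The receptor Tomm70a was lower by 2.50 and the receptor Tomm20 by 1.07. Tomm40, the pore itself, was the mitochondrial exception to the size used here, at -0.71, but it was also the lowest gene of all in cMoP, with a mean of 6.65 TPM and 46.97% of cells above 1 TPM. As log2 ratios of mean TPM, Tomm40 stood past the size at -1.40 and Tomm20 at -0.03. The prohibitins Phb and Phb2, which form a ring in the inner membrane, were lower by 3.18 and 2.80, and both were seen together in 53 cMoP, 14 BM monocytes and 4 blood monocytes.

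All 8 TRiC/CCT genes, which code for the 8 different subunits of each ring, were lower in BM monocytes, with differences from -4.84 to -2.22. Cct5 led in cMoP, at 0, 661 and 1682 TPM, and was the subunit best kept in BM monocytes, at 0, 315 and 1983, before lower values in blood monocytes, at 0, 5.80 and 1312. The shares above 1 TPM were 98.5, 93.0 and 71.1%. Cct3 had the largest difference, from 7.24 ± 2.68 in cMoP to 2.40 ± 3.24 in BM and 1.25 ± 2.05 in blood monocytes; its values were 0, 286 and 1372 TPM, then 0, 0.55 and 1098, then 0, 0 and 415. Incomplete sets of subunit mRNAs were the rule in monocytes: 55 of 66 cMoP had all 8 above 1 TPM, as did 3 of 57 BM monocytes and 1 of 38 from blood, with a median of 5 of 8 in both monocyte groups. The highest mean TPM of a subunit was 2.86 times the lowest in cMoP, 5.73 times in BM monocytes and 20.03 times in those from blood. The last value was set by Cct3, at a mean of 18.2 TPM in blood monocytes; against the second lowest subunit the folds were 2.63, 4.78 and 3.35. Reads of Cct6a and Tcp1 may include those of overlapping genes on the other strand, Psph over 12.5% of the exonic bases of Cct6a and Acat3 over 11.4% of those of Tcp1, as may those of Grpel1, with Tada2b over 11.6%.

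**Figure D2:**
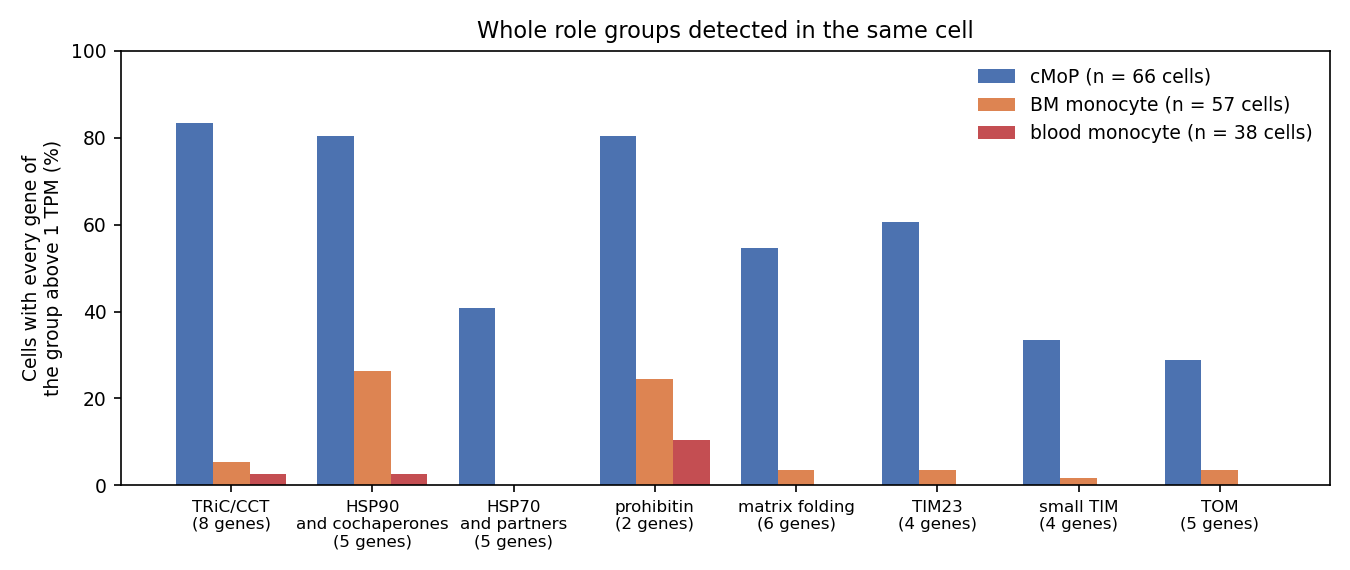
Share of cells (in %, bars from 0) in which every gene of a role group passed 1 TPM, for 66 cMoP, 57 BM monocytes and 38 blood monocytes. All 8 TRiC/CCT genes were seen together in 83.3% of cMoP and 5.26% of BM monocytes, and bars that are missing stand at 0. Monocytes had fewer genes above 1 TPM over all genes as well.

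HSP90 and its cochaperones were lower for all 5 genes. Hsp90ab1, the constitutive HSP90, was at 51.1, 2501 and 6136 TPM in cMoP, 0, 819 and 4199 in BM monocytes and 0, 523 and 3123 in those from blood. Hsp90aa1, the more inducible form, was at 87.4, 983 and 3034 TPM in cMoP, 0, 155 and 2346 in BM monocytes and 0, 85.0 and 1616 in those from blood. Every cMoP had both forms, and 47 of 57 BM and 28 of 38 blood monocytes did. The larger difference was that of Hsp90aa1, -3.82 against -1.69. Ptges3 (p23), which closes the HSP90 cycle, was at 17.2, 2003 and 4543 TPM in cMoP, 0, 609 and 2109 in BM monocytes and 8.94, 896 and 6126 in those from blood, and so stood higher in blood than in marrow. Stip1, which links HSP70 to HSP90, and Ahsa1, which speeds the ATPase of HSP90, were lower by 3.51 and 2.88 in BM monocytes.

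The HSP70 group held both cytosolic exceptions. Hspa8, the constitutive HSP70, was listed in every cell, at 74.2, 6718 and 17173 TPM in cMoP, 141, 4921 and 14923 in BM monocytes and 12.7, 4049 and 10680 in those from blood. The ranges overlapped almost wholly, and its difference from cMoP to BM monocytes was -0.30, with an SD over cells of 1.51 and 1.37. It made up 41.1% of the summed mean TPM of the 18 cytosolic genes in cMoP, 54.1% in BM and 52.2% in blood monocytes. Dnajb1, a heat-inducible DnaJ protein, was at -0.61: fewer BM monocytes had it (35.1% against 59.1%), but those that did had more, and its mean TPM was 64.1 against 29.3. Dnaja1, the other DnaJ partner, passed 1 TPM in 98.5, 91.2 and 92.1% of cells, with mean TPM of 399, 457 and 388, and a log2 difference of -1.25 from cMoP to BM monocytes. Hspa4 and Hsph1, the HSP110 exchange factors, were lower by 3.03 and 2.10.

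**Figure D3:**
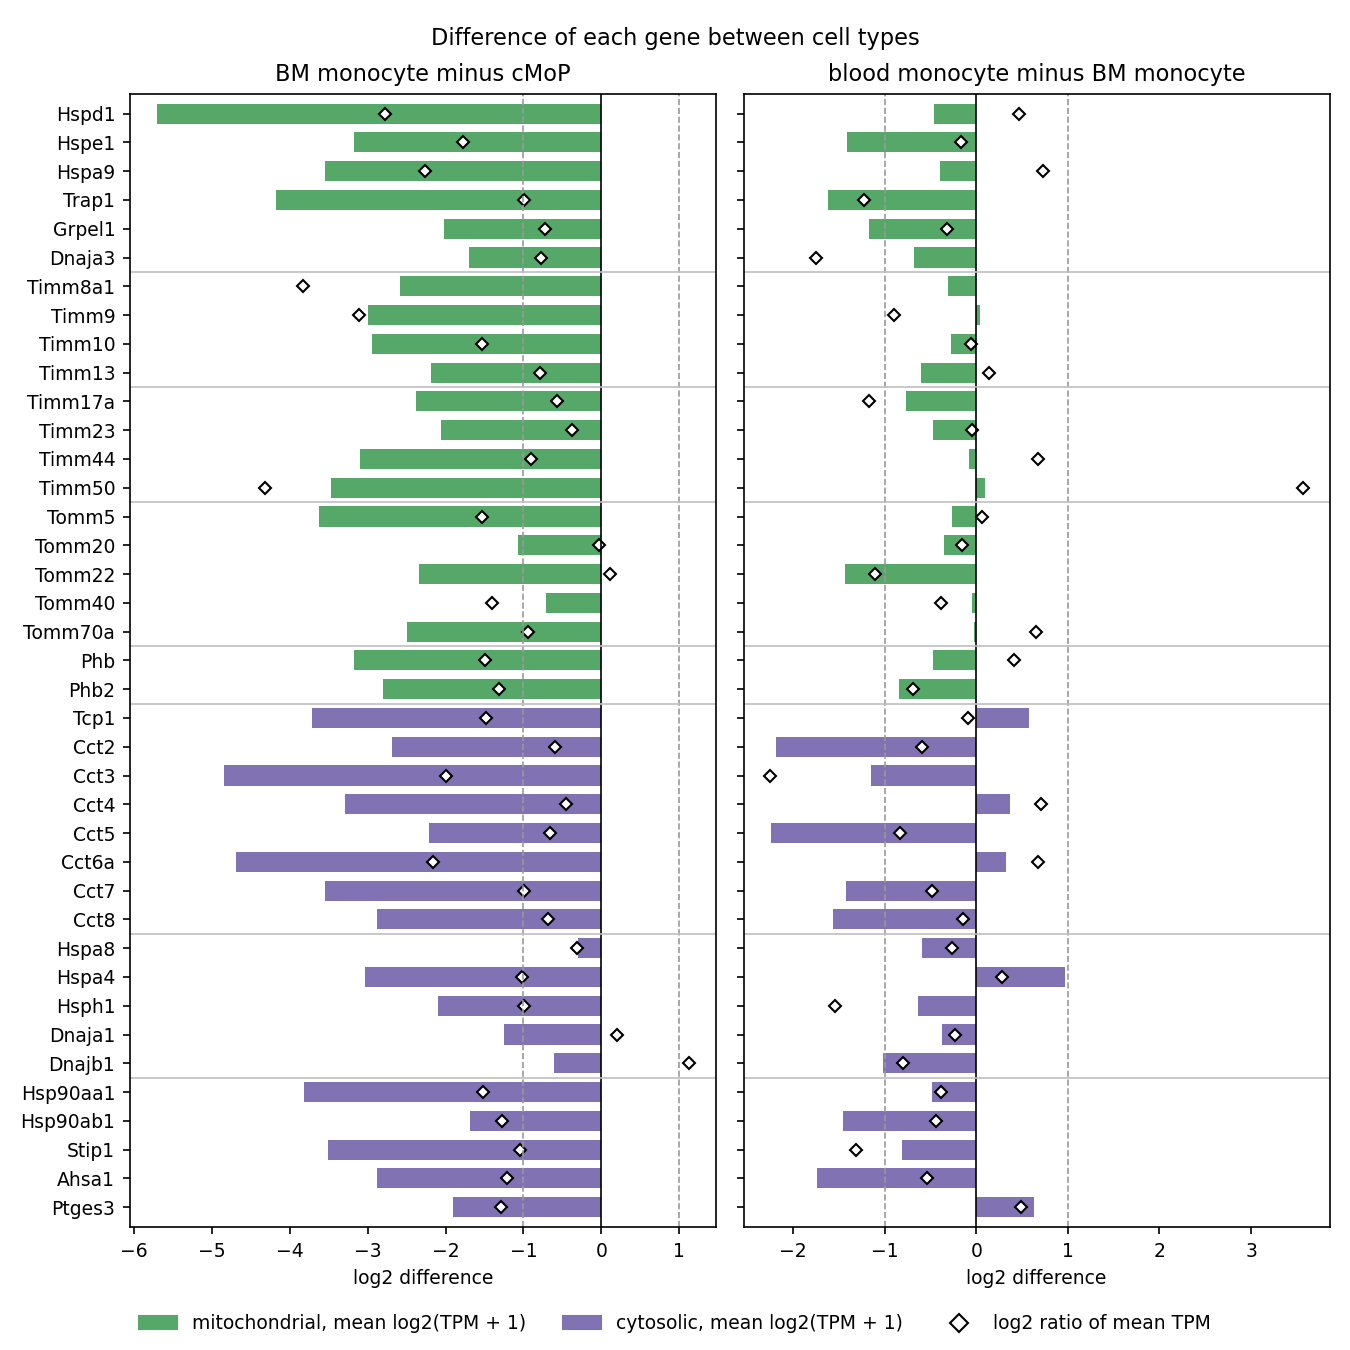
Difference of each gene from cMoP to BM monocytes (left) and from BM to blood monocytes (right), on a log2 scale. Bars give the difference of log2(TPM + 1) averaged over cells, green for mitochondrial and purple for cytosolic genes, diamonds the log2 ratio of mean TPM, and dashed lines a size of 1. In the left panel all bars extend to values below 0, from -5.71 for Hspd1 to -0.30 for Hspa8. In the right panel 32 of the 39 lie below 0, and the bars range from -2.24 to 0.96. The diamond of Timm8a1 on the right is left out because the gene was at 0 in blood monocytes.

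Other genes of the same pathways, from 2 lists that do not contain the 39, gave smaller medians. Of 30 other mitochondrial import and protease genes, 20 were lower by at least 1 in BM monocytes than in cMoP and none was higher by that size, with a median of -1.47, beside the 30.8% and -0.45 of all measured genes. The largest differences were those of the matrix protease subunit Clpp (-3.42), the disulfide relay receptor Chchd4 (-2.90) and the presequence peptidase subunit Pmpcb (-2.64). Of 30 other cytosolic chaperones and cochaperones, 21 were lower by at least 1, with a median of -1.80. These were led by the HSP90 immunophilins Fkbp4 (-4.39) and Ppid (-4.01) and the HSP70 protein Hspa14 (-3.44). Only the prefoldin subunit Pfdn5 of these 30 was above 0, at 0.59, with a mean of 323 TPM in cMoP and 565 in BM monocytes. As log2 ratios of mean TPM, 9 of the 30 mitochondrial and 10 of the 30 cytosolic genes were lower by at least 1, near the 28.2% of all measured genes, and the median of either list was -0.46. Of 13 measured genes known to respond to cell isolation or heat shock, 8 were above 0 and 5 below, with a median of 0.59. Higher by at least 1 were 5 of them, where 3.94% of all measured genes were. These were the immediate-early genes Atf3 (5.06), Fos (3.99), Dusp1 (3.57), Junb (2.08) and Jun (1.34). Of the heat shock genes, the factor Hsf1 was lower by at least 1 (-1.76), and Bag3 (-0.53), Hspa1b (-0.31), Hsf2 (-0.21) and Hspa1a (0.48) lay within that size. As log2 ratios of mean TPM, 8 of these 13 genes were higher by at least 1, where 19.8% of all measured genes were. On that scale 2 were lower by at least 1, where 28.2% of all measured genes were, and the median was 2.24. The part of these 13 genes in the values of the chaperones was not tested.

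From BM to blood monocytes, which shared a flow cell and lane, the differences were smaller and more of those past 1 were cytosolic. The labels describe tissue preparation for bone marrow only, and how the blood was prepared is not given in the sources used here, so cell source and preparation cannot be told apart at this step. Of the 18 cytosolic genes 8 were lower by at least 1, and of the 21 mitochondrial genes 4, where 9.66% of all measured genes were. None of the 39 was higher by at least 1, against 1.96% of all measured genes. Medians were -0.73 for cytosolic and -0.46 for mitochondrial genes, beside -0.10 for all measured genes, and 32 of the 39 genes lay below 0, where 59.8% of all measured genes did. The ranges of the sides, -2.24 to 0.96 and -1.62 to 0.09, overlapped. By the log2 ratio of mean TPM 3 cytosolic and 5 mitochondrial genes were lower by at least 1, where 29.2% of all measured genes were, and by this count the order of the sides was not kept. On that scale 27 of the 39 genes were below 0, beside 50.9% of all measured genes. Timm50, whose mean in blood monocytes was set by 1 library, was higher by at least 1 on it.

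By mean log2 level the CCT subunits parted at this step. Cct5 was lower in blood by 2.24, Cct2 by 2.19, Cct8 by 1.56, Cct7 by 1.42 and Cct3 by 1.15, whereas Tcp1 stood at 0.57, Cct4 at 0.37 and Cct6a at 0.32. As log2 ratios of mean TPM only Cct3 (-2.25) was lower by at least 1. On that scale Cct5 stood at -0.84, Cct2 at -0.59, Cct7 at -0.49, Cct8 at -0.14 and Tcp1 at -0.10. Cct4 and Cct6a stood at 0.70 and 0.68. For Cct2 the difference in mean log2 level was a matter of how many cells had it, 68.4% of BM and 28.9% of blood monocytes, since cells above 1 TPM differed by 0.32. Other cytosolic genes lower by at least 1 were Ahsa1 (-1.75), Hsp90ab1 (-1.45) and Dnajb1 (-1.02). Hspa4 was the member with the largest positive difference, 0.96, with 60.5% of blood and 47.4% of BM monocytes above 1 TPM, whose intervals (43.4 to 76.0% and 33.98 to 61%) overlapped, and Ptges3 stood at 0.63 with mean TPM of 779 and 1090. On the mitochondrial side the 4 genes were Trap1 (-1.62), Tomm22 (-1.43), Hspe1 (-1.41) and Grpel1 (-1.17), so 3 of the 4 were matrix folding genes. The other 17 mitochondrial genes lay between -0.85 (Phb2) and 0.09 (Timm50).

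In the 2 lists of related genes, 6 of 30 mitochondrial and 8 of 30 cytosolic genes were lower by at least 1 at this step, beside 9.66% of all measured genes, and none was higher by that size. As log2 ratios of mean TPM 13 and 9 were lower by at least 1, where 29.2% of all measured genes were, and 6 and 5 were higher, where 22.4% were; the 5 cytosolic genes were Fkbp5, Vbp1, Pfdn2, Dnaja2 and Bag3. By mean log2 level the lists were led by the translocase DnaJ protein Dnajc15 (-1.85), the inner membrane protease Yme1l1 (-1.64) and Timm8b (-1.63) on the one side, and by Dnajb6 (-2.03), Hspa14 (-1.69) and the prefoldin subunit Pfdn1 (-1.47) on the other. Dusp1, Atf3 and Junb, from the list of isolation and heat shock genes, were higher in blood by 2.99, 2.51 and 1.65.

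Over the whole path, blood monocytes against cMoP, 20 of 21 mitochondrial genes and 17 of 18 cytosolic genes were lower by at least 1, where 37.7% of all measured genes were, and none was higher, against 4.28%. All 39 were below 0, as were 73.1% of all measured genes. The median was -3.19 for mitochondrial and -3.72 for cytosolic genes. Hspd1 had the largest difference (-6.17), then Cct3 (-5.99) and Trap1 (-5.80). The 2 genes short of the size were Tomm40 (-0.76) and Hspa8 (-0.90), for which the log2 ratios of mean TPM were -1.79 and -0.58. This comparison shares its cells with the 2 above and adds no independent evidence.

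Within single cells the sums of the compartments could be set against each other, which cancels the fixed TPM total. The 21 mitochondrial genes summed to a median of 2589 TPM in cMoP (467 to 5074), 1122 in BM monocytes (80.6 to 2543) and 906 in those from blood (41.5 to 2280). For the 18 cytosolic genes the medians were 17334 (1568 to 30558), 9856 (1671 to 22342) and 8135 TPM (621 to 17490). The median log2 ratio of mitochondrial to cytosolic sum was -2.65 in cMoP, -3.15 in BM and -3.20 in blood monocytes, and in no cell did the mitochondrial sum exceed the cytosolic one. By this ratio of sums progenitors were the more uniform, with an SD of 0.58 against 1.26 and 1.59. Without Hspa8, an alternative chosen after its share of the sum had been seen, the medians were -1.91, -2.08 and -2.16, and without the highest member of each side they were -2.11, -2.24 and -2.38. With every gene given equal weight, as the difference of mean log2 levels, they were -2.65, -2.67 and -2.45. BM monocytes thus had a lower median than cMoP in each of these 4 ways, by least with equal weights, and blood monocytes in all but the last, in which they had the highest. Without Hspa8 the highest cell stood at -0.61 in cMoP, 1.78 in BM and 0.45 in blood monocytes. The mitochondrial sum was thus the larger in some monocytes once Hspa8 was left out. With equal weights the values ranged from -4.73 to -1.12 in cMoP, -4.73 to 0.28 in BM and -4.26 to -0.73 in blood monocytes.

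**Figure D4:**
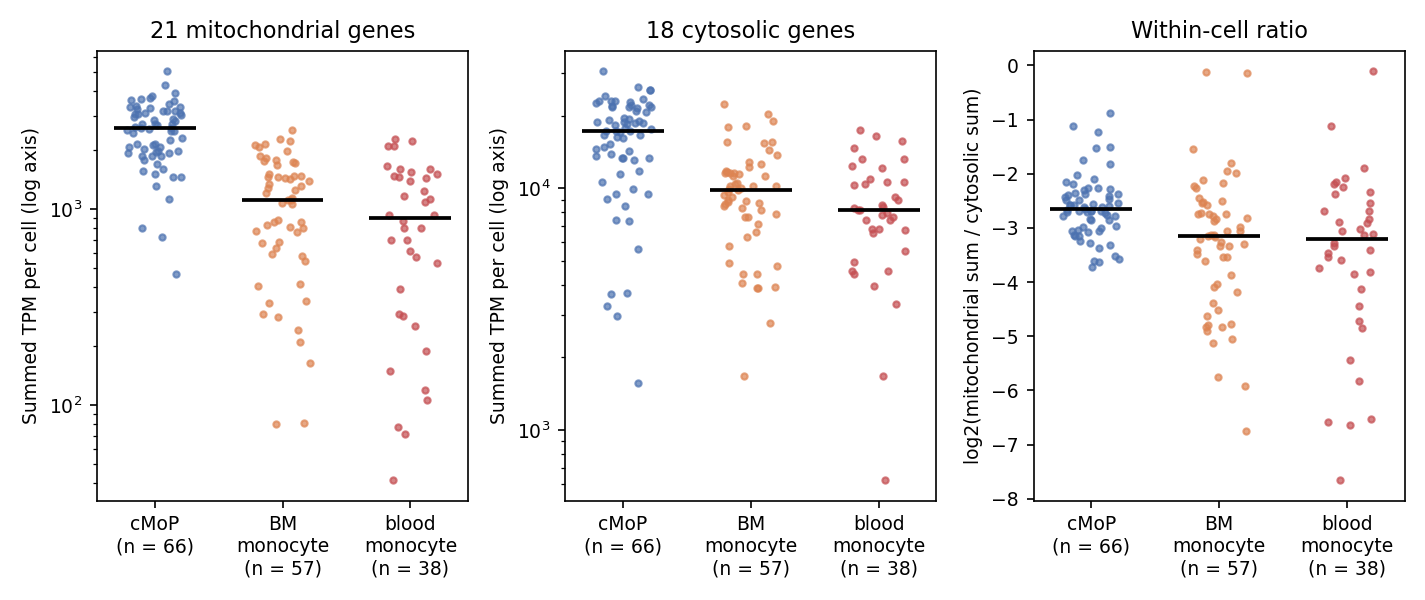
Summed TPM of the 21 mitochondrial genes (left, log axis) and of the 18 cytosolic genes (middle, log axis) and the log2 ratio of the sums in the same cell (right); each point is a cell of 66 cMoP, 57 BM monocytes or 38 blood monocytes, and black lines are medians. Both sums are lower in monocytes, with overlap, and the ratio has medians of -2.65, -3.15 and -3.20 with a wider spread in monocytes.

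The number of genes seen per cell was lower in monocytes on both sides, and by more on the mitochondrial side. A median cMoP had 18 of 21 mitochondrial and 17 of 18 cytosolic genes above 1 TPM, a BM monocyte 9 and 12, and a blood monocyte 6 and 11. Over all genes the medians were 6662, 4719 and 4320. The mitochondrial genes were also the less abundant, with mean TPM in cMoP of 6.65 to 350 against 29.3 to 6718 for the cytosolic genes. The part of abundance in these counts was not tested. Spearman's rho between Hspd1 and Hspe1 was 0.44 over 66 cMoP, 0.04 over 57 BM monocytes and 0.12 over 38 blood monocytes. For Phb and Phb2 it was 0.16, 0.08 and 0.05 and for the 2 HSP90 forms 0.12, 0.10 and 0.22, so the higher value in progenitors was not common to all partners. Between the mitochondrial and cytosolic sums rho was 0.62, 0.23 and 0.19. These are descriptions over cells that share a library preparation and a fixed TPM total, and the share of cells above 1 TPM differed between the cell types. The ratio of Hsp90aa1 to Hsp90ab1 had a median log2 value of -1.39 in cMoP, -1.79 in BM and -1.48 in blood monocytes among cells with both, so Hsp90ab1 led in most cells of all 3 cell types. Summed CCT mRNA stood at a median log2 ratio to Hspa8 of -0.99 in cMoP, -1.94 in BM monocytes and -1.67 in those from blood.

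The progenitor libraries rich in mitochondrially encoded RNA stood apart in these genes. Those 11 had a median mitochondrial sum of 1578 TPM and a cytosolic sum of 5595 TPM, against 2724 and 18588 TPM in the other 55. Without them the cMoP to BM monocyte medians were -3.16 for mitochondrial and -3.45 for cytosolic genes, beside -0.53 for all measured genes. Lower by at least 1 were then 20 and 17 genes. The 6 cMoP libraries with no flow cell label held 8720 to 9971 genes, with median sums of 1969 and 11064 TPM, and without them the medians were -2.65 and -2.82. When libraries were held to 4500 to 6000 genes and those over 15% mitochondrially encoded TPM were left out as well, 7 cMoP, 33 BM and 14 blood monocytes remained; the second limit took out 10 of the 17 cMoP libraries in that range of genes. With both limits together, which moved the median of all measured genes to -0.03, the medians were -2.49 and -2.17, and 18 and 14 genes were lower by at least 1. Hsph1 stood at 0.17 and Hspa4 at -0.12 in that set. For these subsets of libraries the share of all measured genes lower by at least 1 was not computed, so the counts have no background beside them.

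Summed cell cycle genes were lower in monocytes as well. The summed TPM of 6 cycling genes (Mki67, Top2a, Mcm3, Mcm5, Pcna and Ccnb2) had a median of 1760 in cMoP, 132 in BM monocytes and 13.3 in those from blood, and its part in the differences between cell types was not tested. Among the 57 BM monocytes rho between this sum and the cytosolic sum was 0.61, and 0.23 for the mitochondrial sum. Single genes with a rho over 0.3 there were Ptges3 (0.67), Hspa8 (0.59), Hsp90aa1 (0.43), Cct5 (0.36) and Hsph1 (0.35) on the cytosolic side and Timm10 (0.40) on the mitochondrial side. The median rho was 0.19 over the cytosolic and 0.15 over the mitochondrial genes. What share of all measured genes passed 0.3 was not computed. In the same cells the cycling sum had a rho of 0.41 with the number of genes seen and of -0.63 with the summed monocyte markers. In cMoP rho was 0.31 for the cytosolic and 0.19 for the mitochondrial sum, and in blood monocytes -0.10 and -0.04. Over single cytosolic and mitochondrial genes the median rho was 0.14 and -0.01 in cMoP, and 0.01 and 0.04 in blood monocytes.

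**Figure D5:**
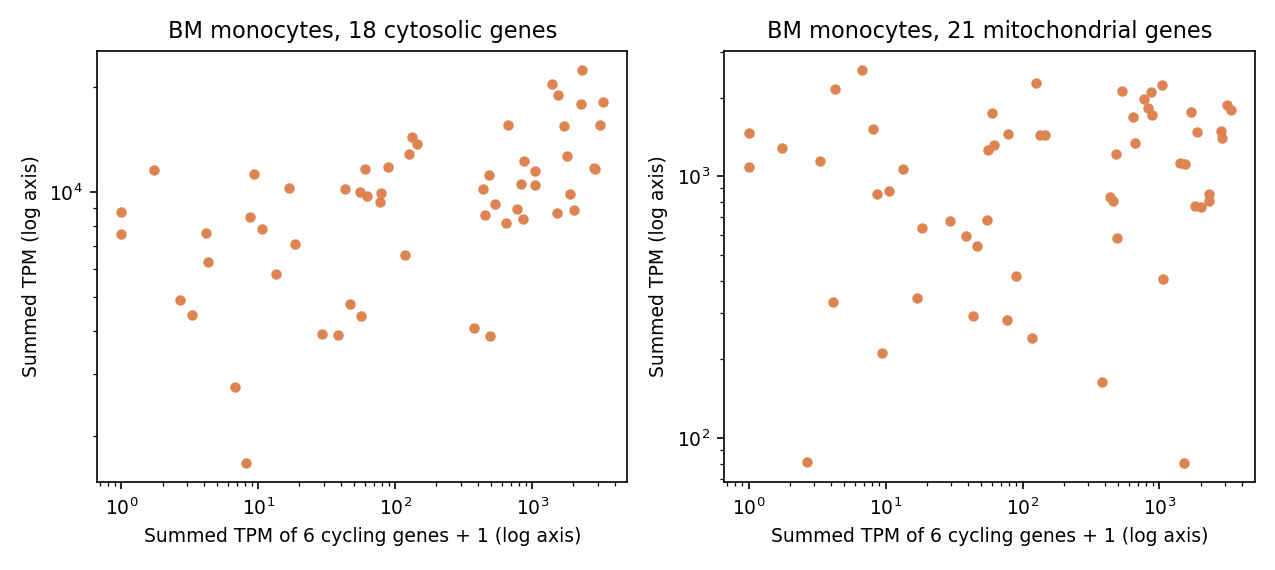
Summed TPM of the 18 cytosolic genes (left) and of the 21 mitochondrial genes (right) against the summed TPM of 6 cycling genes plus 1, on log axes, in the 57 BM monocytes, each point a cell. Cytosolic sums are higher in cells with more cycling mRNA (rho 0.61), and the mitochondrial sums scatter more (rho 0.23).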

How the data were processed

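The deposited table gives TPM per gene for 161 single-cell libraries; the authors used RSEM 1.2.19 and the GRCm38 build, per the submitters' processing notes, and which aligner and annotation they used is not given in the sources used here. Per the labels, cDNA was primed with oligo(dT), amplified on chip and made into Nextera XT libraries, which do not mark strand and carry no molecular identifiers. Columns sum to between 997939 and 999955 TPM. Cells were grouped by labelled cell type. Group levels are means over cells of log2(TPM + 1); the pseudocount of 1 understates changes of low genes. Intervals of shares are 95% Clopper-Pearson intervals and cover the counting of cells only. The scripts were tested on simulated data. No statistical test was run, since no label names an animal. The genes, lists and comparisons were chosen with earlier results of these data known. Of the 2 lists of related genes and of 14 isolation and heat shock genes, the 3 with the largest absolute difference in each of the 2 steps are named, and all 39 members may be named; Pfdn5, Jun, Junb (first step), Hsf1, Hsf2, Bag3, Hspa1a, Hspa1b, Fkbp5, Vbp1, Pfdn2 and Dnaja2 were singled out after their values were seen. Alternatives changed the pseudocount, the filter on low values, the scaling, the summary (ratio of mean TPM) and the libraries used. Positions and overlaps are from GENCODE M21, promoter letters from RefSeq (GRCm38.p6). Python 3.11.15, numpy 2.4.6, pandas 2.3.3 and scipy 1.17.1 were used.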

Additional observations from a re-analysis of the deposited data

How the results depend on the processing

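Under the alternatives, 109 values of the medians, counts and ratios stayed within the spread over cells or within 1.5 times the count, and 17 did not. A change of direction was looked for only in medians of size 1 or more, and none was found. Some of the values that stayed could not move. Changing the filter dropped none of the genes, and leaving out cMoP libraries does not touch values of BM and blood monocytes alone. As log2 ratios of mean TPM the BM monocyte minus cMoP medians were -1.32 (mitochondrial) and -1.01 (cytosolic). Lower by at least 1 were 11 and 9 genes, beside 28.2% of all measured genes. The blood minus BM monocyte cytosolic count was 3, beside 29.2%. Blood minus cMoP gave -1.54 and -1.48, with 11 cytosolic genes lower by at least 1, beside 5099 of 14003 measured genes. On that scale Tomm22 (0.11), Dnaja1 (0.20) and Dnajb1 (1.13) were above 0 from cMoP to BM monocytes. A pseudocount of 10 gave mitochondrial medians of -1.39 (BM minus cMoP) and -1.63 (blood minus cMoP), and blood minus BM counts of 1 mitochondrial and 4 cytosolic genes. A pseudocount of 0.1 gave -4.27 and -5.00 and a mitochondrial blood minus BM count of 7. With 4500 to 6000 genes per library and, at the same time, no library over 15% mitochondrially encoded TPM, that count was 7, and Hsph1 stood at 0.17 from cMoP to BM monocytes. Without Hspa8, chosen after seeing the data, the cMoP ratio was -1.91. The cause of these shifts was not tested. For the changed pseudocounts and library subsets, the share of all measured genes past a size of 1 was not computed. No paired analysis was possible because the replicate numbers only name cells. No animal is named, read depth is unknown, and labelled cMoP and monocytes were on different flow cells, so differences from cMoP cannot be told apart from flow cell. Shares rest on 38 to 66 cells.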
